A study of Mus musculus with 14 samples.

Results

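The 48 genes described here encode the machinery that copies DNA and the enzymes that make its building blocks. They were taken from a fixed list of subunit and enzyme names, and all 48 were found among the 24984 gene symbols of both count tables. Messenger or total RNA was sequenced from c-KIT(+) differentiating spermatogonia, which are germ cells past the stem cell stage that divide before entering meiosis, sorted by FACS from testes of C57BL/6J mice. The labels give no age. In the deletion experiment, 2 control animals (Rosa26-CreERT2; Cbx2[Flox/+], injected with corn oil) were compared with 2 deleted animals (Rosa26-CreERT2; Cbx2[Flox/Δ], injected with tamoxifen), each with 200 µL on 3 days. Both groups carry the Cre recombinase at the broadly active Rosa26 locus, so the deletion is not limited to germ cells, and allele number and tamoxifen both differ between the groups and cannot be told apart. In the 23KRA experiment, 5 wild-type animals (Cbx2[+/+]) were compared with 5 homozygotes (Cbx2[23KRA/23KRA]), whose Cbx2 carries lysine and arginine to alanine changes in its CaPS domain. Neither group of that experiment was treated. CBX2 belongs to Polycomb repressive complex 1, a chromatin silencer. The study asked which genes change in these cells when Cbx2 is deleted or mutated.

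Replication begins when the origin recognition complex, with CDC6 and CDT1, loads rings of MCM2-7 onto DNA, and geminin blocks loading after S phase has begun. CDC45 and the GINS complex turn the rings into working helicases once the DBF4-dependent kinase has acted, and DNA polymerase alpha-primase, delta and epsilon then copy the strands with the sliding clamp PCNA and its loader RFC. Spermatogonia are among the fast-cycling cells of the testis, and many of these genes are known targets of E2F transcription factors at the entry to S phase.

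Libraries held 28169990 to 31166500 counts and 19822 to 19976 detected genes in the deletion experiment, and 14562564 to 19814511 counts and 14958 to 17330 genes in the 23KRA experiment. The first was made with a SMART-Seq mRNA kit and the second with a total RNA kit that depletes ribosomal cDNA, although the labels name polyA RNA for both, so each comparison was kept within its own experiment. Kit, the gene of the sorting marker, was at 231 ± 39.5 CPM (counts scaled to library size, with SD, n = 2) in deletion controls and at 254 ± 15.7 CPM (SD, n = 5) in wild-type libraries, and the germ cell helicase Ddx4 at 736 ± 88.1 and 633 ± 31.0 CPM. Over whole lists, 7 differentiating spermatogonia markers summed to 1913 ± 55.6 and 1760 ± 77.7 CPM in these groups. The sums were 100 ± 2.31 and 129 ± 12.8 CPM for 7 undifferentiated spermatogonia markers, and 3564 ± 92.8 and 2492 ± 174 CPM for 8 meiotic prophase markers. Markers listed for other germ cell stages were thus also detected, and whether their RNA came from cells of those stages was not tested. Cbx2 itself averaged 95.8 ± 2.67 CPM in control and 82.5 ± 5.66 CPM in deleted animals (SD, n = 2 each; log2 fold change −0.21, SE 0.12, unadjusted p = 0.0706), and which exons the floxed allele removes is not given in the sources used here. The count over the whole gene therefore checks the deletion labels only in part. Spermatid genes, which a pure sort would lack, were present in every library: the sum of 7 of them was 2297 to 2987 CPM in the deletion experiment and 224 to 1028 CPM in the 23KRA experiment.

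No replication gene passed the test in either experiment. With edgeR's quasi-likelihood test and Benjamini-Hochberg adjustment over all genes tested, 0 of 48 members had an adjusted p under 0.05 in the deletion experiment (0.00598% of all 16725 genes tested, which is the Leydig cell gene Cyp17a1 alone), and the smallest adjusted p of a member was 0.939. With 1 library left out the calls over all genes numbered 9 and 3 without control replicates 1 and 2, and 2 and 73 without deleted replicates 1 and 2, and 0 of them were members. In the 23KRA experiment 0 of 48 members passed (0% of 14208 genes), with a smallest adjusted p of 1.00. An unadjusted p under 0.05 was found for 1 of 48 members in each experiment, a smaller share than over all genes: Pola1 in the deletion (4.78% of all genes) and Rfc4 in the 23KRA experiment (3.11% of all genes). DESeq2 and limma-voom also called 0 members in each experiment. All 48 members passed the filter on low counts in both experiments.

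The fitted intervals of the members were narrow. In the deletion experiment the 95% interval of the fold change lay within 1.5-fold in either direction for 47 of 48 members, against 63.9% of all genes tested and 95.5% of genes at 10 CPM or more in the controls, and the exception was Pola1. Among 23KRA libraries it did so for 46 of 48 members, against 47.4% of all genes and 75.2% of genes at 10 CPM or more, the exceptions being Orc5 and Rfc3. Every member's interval lay within 2-fold in both experiments. With 2 libraries per group, the deletion values still depended on single libraries. Leaving out deleted replicate 1 moved a member's log2 fold change by up to 0.21 and changed the sign of 18 of 48 members. Among wild-type libraries the median coefficient of variation of a member was 12.7%. It was 23.1% over all genes tested and 15.3% over genes at 10 CPM or more. Between the 2 deletion controls it was 6.24% for members, below the 7.67% of all genes but above the 5.65% of genes at 10 CPM or more.

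**Figure D1:**
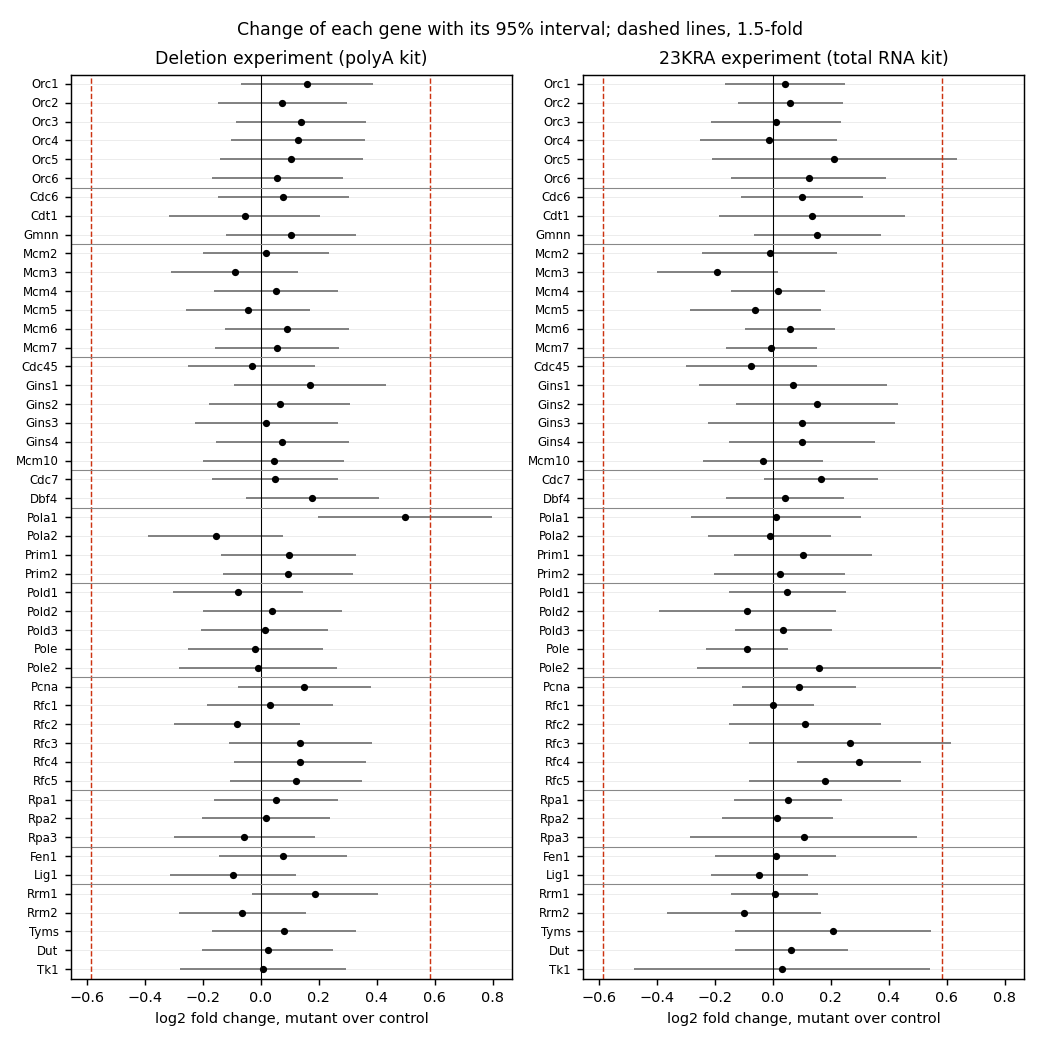
Log2 fold change of each of the 48 genes, mutant over control, in the deletion (left, 2 against 2 libraries) and the 23KRA experiment (right, 5 against 5). Points are fitted values, bars 95% intervals, grey lines separate roles and dashed lines mark 1.5-fold; Pola1 (0.50) lies farthest from 0 on the left and Rfc4 (0.30) on the right.

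As a group the members lay slightly above 0 in both experiments. After deletion, 36 of 48 had a log2 fold change above 0 (49.0% of all genes), with a median of 0.05 compared with −0.00 over all genes, and values ran from −0.15 for Pola2 to 0.50 for Pola1. Likewise, 36 of 48 were also above 0 (50.8% of all genes) in the 23KRA experiment, with a median of 0.05 compared with 0.00, from −0.19 for Mcm3 to 0.30 for Rfc4. With any 1 library of the 23KRA experiment left out, 31 to 37 members were above 0 and the median ran from 0.03 to 0.07. It was 0.0276 without homozygous replicate 2 and 0.0279 without homozygous replicate 3, against 0.0461 with all libraries. Relative to the wild-type mean, the median member lay from −0.10 to 0.03 in single wild types and from −0.02 to 0.08 in homozygotes, with overlap. Between replicates of a group the SD of the members' median shift was 0.048, about as large as the offset. That SD describes single libraries, whereas the offset is between groups, so it is not the error of the offset. No test of the offset was run. The offset in the deletion experiment rested on 1 library. Relative to the control mean, the median member lay 0.12 higher on the log2 scale in deleted replicate 1 and 0.01 lower in deleted replicate 2, and 39 of 48 members were higher in deleted replicate 1 than in deleted replicate 2, compared with 48.7% of all genes. Without deleted replicate 1 the median was −0.0034 and 24 of 48 members were above 0.

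Few members separated the groups. In the deletion experiment both deleted libraries lay above both controls for 7 members, Cdc6, Mcm4, Mcm6, Mcm10, Pola1, Rpa1 and Rrm1 (15.6% of all genes did so), and below both for Rfc2 and Rpa3 (17.5% of all genes). The 2 controls differed from each other by more than the group means did for 32 of 48 members, compared with 59.9% of all genes. In the 23KRA experiment all 5 homozygotes lay above all 5 wild types for 1 member, Rfc4 (0.436% of all genes), and below them for 0 members (0.274% of all genes).

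**Figure D2:**
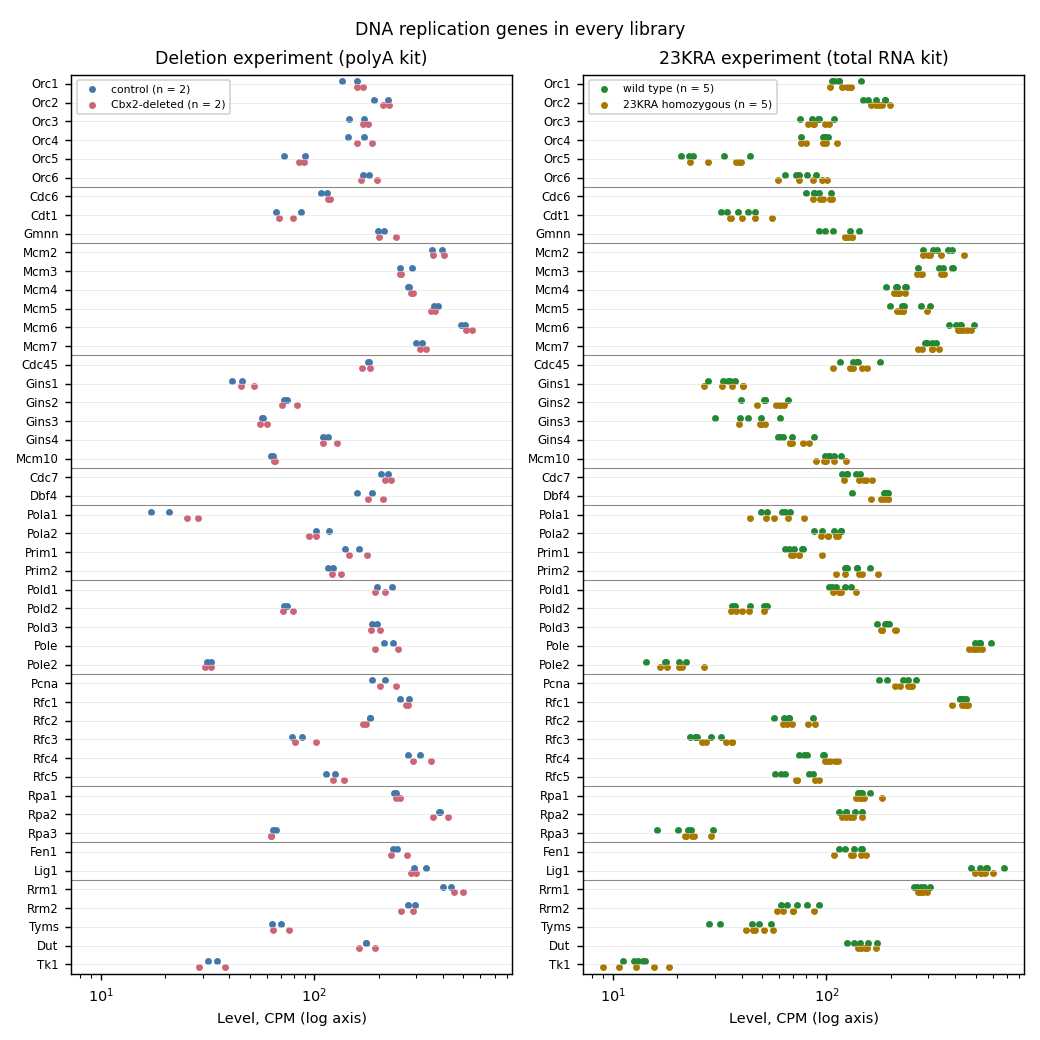
Level of each of the 48 genes in every library, in CPM on a log axis, in the deletion (left) and 23KRA experiment (right). Each point is 1 library, mutants are drawn just below their controls, and grey lines separate roles; Mcm6 reached 546 CPM in a deleted library, Pola1 is lowest on the left at 17.2 CPM and Tk1 lowest on the right at 8.999 CPM.

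Because many of these genes are known E2F targets, their promoters were read from RefSeq on GRCm38.p6, as the 250 bases before and 50 after the annotated start, for the 40 members with an entry. A gene with several annotated starts was counted as holding a string where the promoter of any of them did. Those with none were Mcm4, Gins1, Gins2, Gins4, Pole, Rfc2, Gmnn and Prim2. The strings TTTCGCGC, TTTGGCGC, TTTCCCGC and TTTGCCGC, read on both strands, stood for the E2F site. Promoters are printed to set the gene with the most matches beside the 2 genes with the smallest p: Mcm6 (chr1:128359656-128359955, minus strand), Pola1 (chrX:93632106-93632405, minus strand) and Rfc4 (chr16:23127681-23127980, minus strand). Capitals mark the E2F strings, which overlap each other once in Mcm6.
Mcm6: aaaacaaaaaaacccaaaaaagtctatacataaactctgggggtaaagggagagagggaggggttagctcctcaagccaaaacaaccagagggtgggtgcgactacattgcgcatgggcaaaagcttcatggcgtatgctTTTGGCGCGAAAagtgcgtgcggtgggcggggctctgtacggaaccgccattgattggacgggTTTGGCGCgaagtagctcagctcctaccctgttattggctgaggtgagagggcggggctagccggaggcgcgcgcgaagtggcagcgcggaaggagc
Pola1: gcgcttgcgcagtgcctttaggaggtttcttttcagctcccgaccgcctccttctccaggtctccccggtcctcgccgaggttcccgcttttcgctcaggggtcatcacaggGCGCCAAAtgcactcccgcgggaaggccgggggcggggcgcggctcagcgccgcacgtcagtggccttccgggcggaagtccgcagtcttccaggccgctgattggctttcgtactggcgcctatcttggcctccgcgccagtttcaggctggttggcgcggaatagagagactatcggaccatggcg
Rfc4: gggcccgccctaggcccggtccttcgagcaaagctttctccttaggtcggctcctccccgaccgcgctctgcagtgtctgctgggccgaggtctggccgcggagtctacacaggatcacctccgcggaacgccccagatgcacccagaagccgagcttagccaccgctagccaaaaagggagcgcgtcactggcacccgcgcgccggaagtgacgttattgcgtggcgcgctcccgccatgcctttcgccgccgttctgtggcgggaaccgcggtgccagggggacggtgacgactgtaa

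An E2F string lay in the promoter window, before or just after the start, of 15 of 40 members (37.5%), compared with 2.60% of all 27025 genes with an entry and 4.17% of the 13024 of them tested in the deletion experiment. The 15 genes were Cdc6, Cdt1, Gins3, Lig1, Mcm3, Mcm5, Mcm6, Mcm7, Orc1, Orc3, Pola1, Pold1, Pold3, Pole2 and Rfc3. Mcm6 held 3 matches and Pola1 held 1. CCAAT, the NF-Y string, lay in the window of 57.5% of members and 41.1% of all genes, and TTTGAA, which resembles the CHR element of cell cycle promoters, in 17.5% and 20.2%. Among the 13024 genes tested in the deletion experiment the shares were 42.5% for CCAAT and 14.7% for TTTGAA. Members with an E2F string had a median log2 fold change of 0.02 in the deletion (9 of 15 above 0) and 0.04 in the 23KRA experiment (11 of 15). Members without one had medians of 0.05 (21 of 25) and 0.04 (18 of 25).

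All 6 subunits of the origin recognition complex were above 0 in the deletion experiment, with a median log2 fold change of 0.12, and 5 of 6 in the 23KRA experiment, with a median of 0.05. None passed the test. Orc1, the subunit that joins the complex in G1, was at 158 and 134.6 CPM in the controls and 169 and 158 CPM in the deleted libraries, a log2 fold change of 0.16 (SE 0.11, unadjusted p = 0.161). The upper control lay just above the lower deleted library, so the groups overlapped. Across the 23KRA experiment Orc1 ran from 106 to 146 CPM with a median of 114 in wild types and from 104 to 130 with a median of 125 in homozygotes, overlapping throughout. Per kilobase of exon, Orc6, which is required for MCM loading, was the most abundant subunit in all 4 deletion libraries at 70.8 ± 3.35 CPM per kb in controls (SD, n = 2). Orc2, a core subunit, was the most abundant per kilobase in 9 of 10 libraries of the 23KRA experiment, at 44.2 ± 4.64 CPM per kb in wild types (SD, n = 5), although with the longest transcript as length Orc6 led there at 52.0 CPM per kb against 47.9 for Orc2. Orc5, which binds ATP in the core ring, was lowest per kilobase in all libraries of both experiments, at 13.1 ± 2.12 (SD, n = 2) and 4.67 ± 1.57 CPM per kb (SD, n = 5). It also had the highest coefficient of variation of the members in wild types, at 33.7%. Of the 3857 exon bases of Orc2, 1150 overlap exons of Nif3l1 on the opposite strand. For Orc6, 171 of 2469 overlap those of Vps35, also opposite. Because the strand setting of the counting is not given, the levels and ranks of these genes are uncertain.

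The licensing genes and their inhibitor stayed short of the test. Gmnn, the geminin gene, was at 213 and 199 CPM in the controls and 241 and 202 CPM in the deleted libraries (log2 fold change 0.10, SE 0.11). In wild types it ran from 92.1 to 141 CPM with a median of 107, and in homozygotes from 122 to 131 CPM with a median of 126 (log2 fold change 0.15, SE 0.11, unadjusted p = 0.163). The homozygotes thus fell inside the wider range of the wild types. Cdc6, which joins the origin complex to load MCM rings, gave 0.08 (SE 0.11) and 0.10 (SE 0.10) on the log2 scale in the deletion and 23KRA experiments. Cdt1, which escorts the rings, gave −0.06 (SE 0.13) and 0.14 (SE 0.16). Per kilobase, Gmnn stood at 141 CPM per kb in deletion controls, compared with 21.2 for Cdc6 and 24.4 for Cdt1.

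The 6 MCM2-7 genes were among the most abundant members. Their summed level was 2058 and 2146 CPM in the controls and 2127 and 2142 CPM in the deleted libraries, and 1876 ± 108 CPM in wild types against 1839 ± 165 CPM in 23KRA homozygotes (SD, n = 5 each). Mcm6 was highest, at 510 and 485 CPM in the controls and 546 and 514 CPM in the deleted libraries (log2 fold change 0.09, SE 0.11). Both deleted libraries lay above both controls, by less than the gap between the deleted libraries. Mcm6 in 23KRA libraries had medians of 423 CPM in wild types and 437 CPM in homozygotes (log2 fold change 0.06, SE 0.08). Mcm3 gave the lowest value of any member in the 23KRA experiment: it was at 391, 337, 389, 268 and 352 CPM in wild types and at 343, 264, 354, 279 and 282 CPM in homozygotes (log2 fold change −0.19, SE 0.10, unadjusted p = 0.0690). The highest wild types lay above all homozygotes, but wild-type replicate 4 lay among the lowest homozygotes. Deletion libraries held Mcm3 at 251 and 287 CPM in the controls and 252 and 254 CPM in the deleted libraries (log2 fold change −0.09, SE 0.11).

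The other MCM genes did not pass the test either. Mcm2 was at 358 and 395 CPM in the controls and 359 and 404 CPM in the deleted libraries, and its median was 330.3 CPM in wild types and 306 CPM in homozygotes. Mcm4 was at 274 and 278 CPM in the controls and 283 and 290.3 CPM in the deleted libraries, and its median was 213 and 219 CPM in the 23KRA groups. Mcm5 was at 365 and 380 CPM in the controls and 353 and 370 CPM in the deleted libraries, and its median was 232 and 227 CPM. These 3 genes had log2 fold changes between −0.06 and 0.05 in both experiments. Mcm7 was at 300.3 and 321 CPM in the controls and 335 and 311 CPM in the deleted libraries, and its median was 297 and 312 CPM. An annotated processed pseudogene shares long near-identical stretches with Mcm7, and such copies also exist for Cdc6, Pcna, Rfc5, Rrm2 and Tyms, so the counts of these 6 genes are uncertain in level. The groups overlapped in the 23KRA experiment for every MCM gene.

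The balance among MCM subunits was computed as each one's share of the summed counts per kilobase of exon. In deletion controls the shares were 11.4% for Mcm2, 15.2% for Mcm3, 16.3% for Mcm4, 19.7% for Mcm5, 22.6% for Mcm6 and 14.8% for Mcm7. Mcm6 exceeded Mcm2 per kilobase by a ratio with a median of 2.01 over the 4 libraries. In wild types Mcm3 held 21.8 ± 2.24% and Mcm6 21.5 ± 2.08% (SD, n = 5), and in homozygotes Mcm3 held 19.6 ± 1.54% and Mcm6 23.0 ± 1.37% (SD, n = 5), with the groups overlapping for both. After deletion the share of Mcm3 was 14.4 to 15.9% in controls and 14.03 to 14.11% in deleted libraries, without overlap. The ratio of Mcm6 to Mcm2 depends on the length used: with the union of exons Mcm6 stood at 107 and Mcm2 at 54.1 CPM per kb in the controls, and with the longest transcript at 114 and 108. With the longest transcript, the least abundant subunit was Mcm3 in the deletion and Mcm4 in the 23KRA experiment, not Mcm2.

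**Figure D3:**
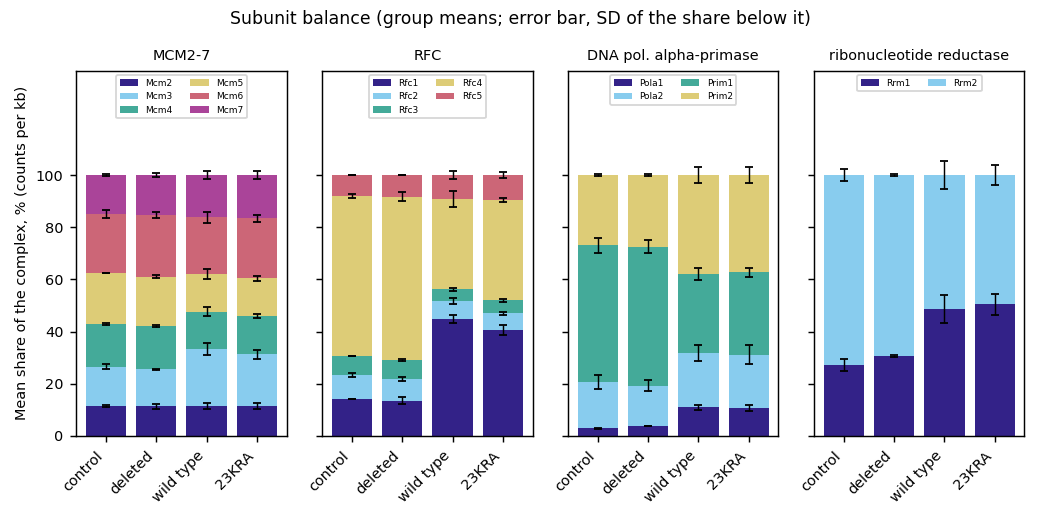
Mean share of each subunit in the summed counts per kilobase of exon of its complex, in percent, for MCM2-7, RFC, DNA polymerase alpha-primase and ribonucleotide reductase; bars are group means (n = 2, 2, 5 and 5 libraries) and each error bar is the SD of the share below it. The stacks differ more between the experiments than within either: Rfc1 holds 14.1% of RFC in deletion controls and 44.9% in wild types, and Pola1 2.89% and 11.0% of its complex.

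Over 10 complexes with 37 subunits, the shares of 10 subunits did not overlap between the groups of the deletion experiment and those of 0 did not overlap in the 23KRA experiment. With 2 against 2 libraries, 15.6% of all genes lay wholly above and 17.5% wholly below the controls in CPM, so 10 of 37 is near that background. Leaving out 1 library gave 25 and 19 subunits without control replicates 1 and 2, and 23 and 27 without deleted replicates 1 and 2. Fewer libraries make overlap rarer by construction. The background of 15.6% and 17.5% is for 2 against 2 libraries, and none is given for 2 against 1. The counts with 1 library left out therefore cannot be compared with it, and no shift in balance is read from them. With all libraries, the higher shares in deleted libraries were those of Orc1, Gins1, Pola1, Rrm1 and Dbf4, and the lower ones those of Mcm3, Mcm5, Rfc2, Rrm2 and Cdc7. In complexes of 2 subunits a higher share of one is a lower share of the other by construction.

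None of the helicase activators passed the test. Gins4 was the most abundant GINS subunit per kilobase in all libraries of both experiments, holding 55.3% of the complex in deletion controls and 49.4% in wild types. It was at 115.5 and 109.6 CPM in the controls and at 127 and 109.9 CPM in the deleted libraries. Gins2, the least abundant GINS subunit per kilobase in 4 of 4 deletion and 8 of 10 other libraries, was at 72.0 and 74.7 CPM in the controls and 82.7 and 70.8 CPM in the deleted libraries. Of its 4097 exon bases, 2758 overlap exons of Gse1 on the opposite strand. The strand setting of the counting is not given, so the level and rank of Gins2 are uncertain. Cdc45, the helicase cofactor, was nearly equal in the 2 controls at 180 and 178 CPM and stood at 183 and 167 CPM in the deleted libraries (log2 fold change −0.03, SE 0.11). Mcm10, which helps the helicase start, was at 64.0 and 62.4 CPM in the controls and 65.6 and 64.7 CPM in the deleted libraries, and its log2 fold change in the 23KRA experiment was −0.03 (SE 0.10).

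Dbf4, the activator of the kinase CDC7, was at 186 and 159 CPM in the controls and 210.5 and 179 CPM in the deleted libraries (log2 fold change 0.18, SE 0.11, unadjusted p = 0.124). The lower deleted library lay below the upper control. Libraries of the 23KRA experiment held Dbf4 at 131 CPM in wild-type replicate 1 and from 186 to 195 CPM in the other 4 wild types, and from 162 to 195 CPM in homozygotes. Cdc7, the catalytic subunit, was at 223 and 205 CPM in the controls and 229 and 214 CPM in the deleted libraries. Its wild types ran from 119 to 144 CPM with a median of 125 and its homozygotes from 120.1 to 164 CPM with a median of 149 (log2 fold change 0.17, SE 0.10, unadjusted p = 0.0926). Of the homozygotes, 1 lay near the bottom of the wild types and 3 above all of them.

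Pola1, the X-linked gene of the catalytic subunit of DNA polymerase alpha, had the smallest unadjusted p of any member. It was at 20.8 and 17.2 CPM in the controls and 28.4 and 25.2 CPM in the deleted libraries. Both deleted libraries lay above both controls, by more than the gap between the libraries of either group. The means were 19.0 ± 2.52 and 26.8 ± 2.23 CPM (SD, n = 2 each), a fold change of 1.41 with a 95% interval from 1.15 to 1.74 (log2 fold change 0.50, SE 0.15). With edgeR's test its unadjusted p was 0.00180 and its adjusted p 0.939, so it did not pass over all genes. Leaving out any 1 library gave log2 fold changes from 0.37 to 0.65. Wild types of Pola1 averaged 59.0 ± 7.75 CPM and 23KRA homozygotes 59.4 ± 13.2 CPM (SD, n = 5 each), and the fitted log2 fold change was 0.01 with an SE of 0.14. The difference between the effects was 0.47 (SE 0.27, interval −0.09 to 1.03, unadjusted p = 0.0976, adjusted p = 1.00 with edgeR's test), so it was not shown to differ between the experiments.

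The partners of Pola1 gave values nearer 0. Pola2, the accessory subunit, was at 101.4 and 117 CPM in the controls and 94.0 and 102 CPM in the deleted libraries (log2 fold change −0.15, SE 0.12, unadjusted p = 0.186), with overlap. Prim1, the catalytic primase subunit, was at 162 and 139 CPM in the controls and 176 and 146 CPM in the deleted libraries, and Prim2, the regulatory one, at 122 and 115.5 CPM and 133 and 121 CPM. As a share of the complex per kilobase, Pola1 held 2.73 to 3.06% in controls and 3.90 to 3.91% in deleted libraries. It was the least abundant subunit of the complex in every library of both experiments. Among all 48 genes it was also the lowest per kilobase in deletion controls, at 2.15 ± 0.29 CPM per kb (SD, n = 2).

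**Figure D4:**
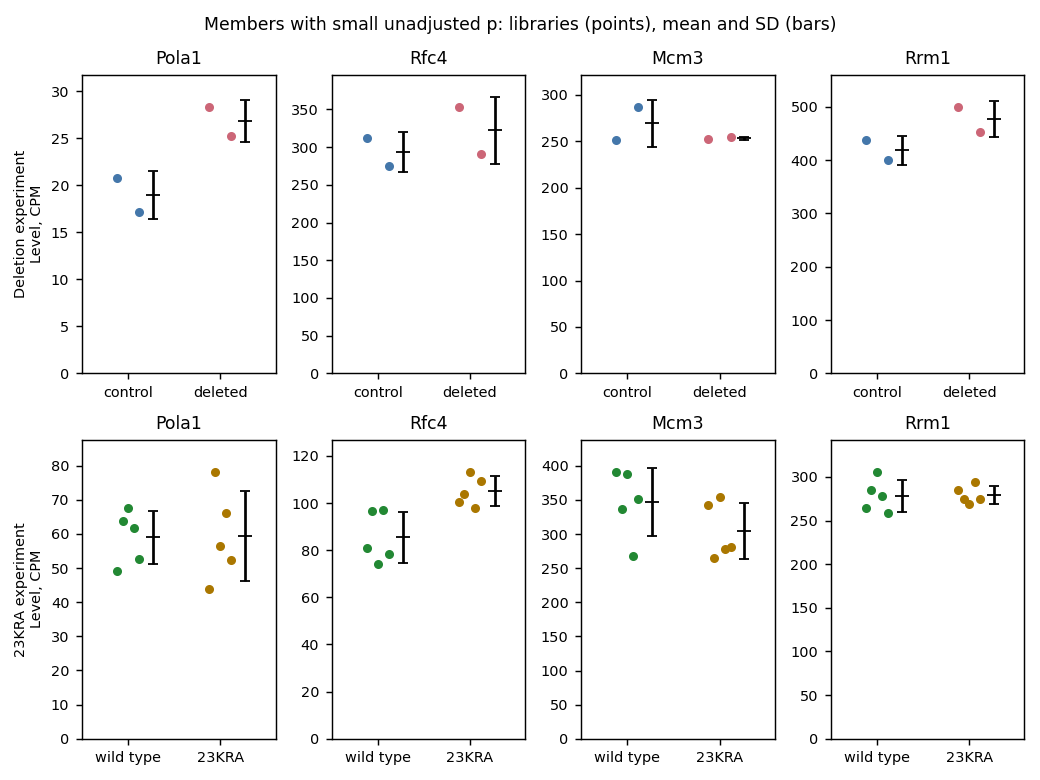
Level in CPM of Pola1, Rfc4, Mcm3 and Rrm1 in every library of the deletion (top) and 23KRA experiment (bottom), with axes from 0. Points are libraries, and the bar beside them is the mean with its SD; only Pola1 and Rrm1 at the top and Rfc4 at the bottom have groups that do not overlap.

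Polymerases delta and epsilon extend the lagging and the leading strand. Their 5 genes had log2 fold changes from −0.08 to 0.04 in the deletion and from −0.09 to 0.16 in the 23KRA experiment. Pold1, the catalytic subunit of delta, was at 196 and 232 CPM in the controls and 192 and 213 CPM in the deleted libraries. Pole, its counterpart in epsilon, was at 211 and 234 CPM in the controls and 193 and 246 CPM in the deleted libraries, and had medians of 522 CPM in wild types and 498 CPM in homozygotes. Its deleted libraries lay on either side of both controls. Pole2, an accessory subunit, was the least abundant of these genes per kilobase in both experiments, at 11.1 and 6.37 CPM per kb in their controls.

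Rfc4, a subunit of the loader that opens PCNA around DNA, was the member with the smallest unadjusted p in the 23KRA experiment. Wild types were at 80.8, 96.8, 74.0, 97.2 and 78.4 CPM and homozygotes at 100.6, 103.8, 113, 97.9 and 109.5 CPM. Every homozygote lay above every wild type, the closest pair being 97.9 and 97.2 CPM. The means were 85.4 ± 10.8 and 105 ± 6.31 CPM (SD, n = 5 each), a fold change of 1.23 with a 95% interval from 1.06 to 1.43 (log2 fold change 0.30, SE 0.10). Its unadjusted p was 0.00806 and its adjusted p with edgeR's test 1.00. Leaving out any 1 library gave log2 fold changes from 0.25 to 0.35. Exons of Rfc4 overlap those of Eif4a2 on the opposite strand by 194 bases, and because the strand setting of the counting is not given in the sources used here, reads there cannot be assigned with certainty. Eif4a2, a translation initiation helicase, was at 177 ± 17.3 CPM in wild types (SD, n = 5), and its log2 fold change was 0.06 (SE 0.09).

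Deletion libraries held Rfc4 at 312 and 275 CPM in the controls and 354 and 290.3 CPM in the deleted libraries (log2 fold change 0.14, SE 0.11), with overlap. The difference between its effects was −0.18 (SE 0.17, unadjusted p = 0.312). Of the loader genes Rfc3, another small subunit, was next in the 23KRA experiment, with wild types from 23.0 to 32.0 CPM and a median of 24.7, and homozygotes from 26.0 to 36.2 CPM and a median of 33.9 (log2 fold change 0.27, SE 0.17, unadjusted p = 0.127). Rfc5 had a log2 fold change of 0.18 (SE 0.13), Rfc2 0.11 (SE 0.13) and the large subunit Rfc1 0.00 (SE 0.07). All 5 loader genes and Pcna were above 0 in that experiment (50.8% of all genes). In the deletion experiment 5 of these 6 were above 0 (49.0% of all genes), with none passing the test in either. Pcna was at 214 and 185 CPM in the controls and 240 and 203 CPM in the deleted libraries (log2 fold change 0.15, SE 0.11), and had medians of 229 CPM in wild types and 241 CPM in homozygotes. Per kilobase, Rfc4 held 61.1% of the loader in deletion controls and was the most abundant of all 48 genes there, at 191 ± 17.1 CPM per kb (SD, n = 2). In wild types Rfc1 led with 44.9 ± 1.54% and Rfc4 held 34.5 ± 3.02% (SD, n = 5).

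Single-strand binding and Okazaki fragment genes did not pass the test either. Rpa2, a subunit of replication protein A, was at 385 and 390.4 CPM in the controls and 424 and 361 CPM in the deleted libraries, which lay on either side. Rpa1, the large DNA-binding subunit, was at 241 and 236 CPM and 252 and 243 CPM, and Rpa3, the smallest, at 65.9 and 64.3 CPM and 62.7 and 62.5 CPM. Fen1, the flap nuclease, was at 233 and 243 CPM in the controls and 272 and 229.6 CPM in the deleted libraries. Lig1, the ligase that seals the fragments, was at 292 and 333 CPM in the controls and 285 and 300.1 CPM in the deleted libraries. In wild types Lig1 was the most abundant member per kilobase, at 131 ± 17.8 CPM per kb (SD, n = 5), with CPM medians of 559 in wild types and 532 in homozygotes.

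Among nucleotide synthesis genes, those of ribonucleotide reductase, the enzyme that makes deoxyribonucleotides, lay on either side of 0 in the deletion experiment without passing the test. Rrm1, the large subunit, was at 438 and 399 CPM in the controls and 500.2 and 452 CPM in the deleted libraries (log2 fold change 0.19, SE 0.11, unadjusted p = 0.0905). Both deleted libraries were above both controls. Rrm2, the small subunit whose level limits the enzyme in cycling cells, was at 274 and 295 CPM in the controls and 290.4 and 254 CPM in the deleted libraries (log2 fold change −0.06, SE 0.11), with overlap. Per kilobase, Rrm1 held 25.4 to 28.7% of the pair in controls and 30.2 to 31.0% in deleted libraries. For 23KRA libraries the share of Rrm1 was 48.7 ± 5.29% in wild types and 50.5 ± 4.00% in homozygotes (SD, n = 5 each), and the log2 fold changes were 0.01 (SE 0.07) for Rrm1 and −0.10 (SE 0.13) for Rrm2. Wild types of Rrm1 ran from 258 to 306 CPM and homozygotes from 269 to 294 CPM. For Rrm2 the ranges were 61.2 to 91.9 CPM and 58.9 to 87.6 CPM.

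The remaining genes of nucleotide synthesis include the salvage enzyme Tk1. Tk1, thymidine kinase, was the least abundant member per kilobase in wild types at 2.49 ± 0.23 CPM per kb (SD, n = 5). It was at 31.8 and 34.9 CPM in the controls and 38.1 and 28.9 CPM in the deleted libraries, and from 11.1 to 14.1 CPM in wild types and 8.999 to 18.3 CPM in homozygotes. Tyms, thymidylate synthase, gave 0.08 (SE 0.12) and 0.21 (SE 0.16) on the log2 scale in the deletion and 23KRA experiments. Dut, the dUTPase that keeps uracil out of DNA, gave 0.02 (SE 0.11) and 0.06 (SE 0.09).

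No member's effect was shown to differ between the experiments. In the fit that compares the effects, 0 of 48 members passed (0% of 17227 genes tested), and 0 had an unadjusted p under 0.05 (0.58% of all genes). After Pola1, the smallest unadjusted p values belonged to Rrm1 (difference 0.16, SE 0.13), Rfc4, Rfc2 (−0.21, SE 0.21) and Pola2 (−0.16, SE 0.18).

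Levels in control libraries differed between the experiments. The order of the 48 genes per kilobase had a Spearman correlation of 0.838 between deletion controls and wild types (n = 48 genes, each from the same libraries). CPM in wild types was 0.262 times that in deletion controls for Rrm2, 0.291 times for Rfc4 and 0.318 times for Rfc3, and 3.11 times for Pola1, 2.39 times for Pole and 1.80 times for Lig1. The ratio had a Spearman correlation with transcript length of 0.352 across the members and 0.468 across all 13883 genes tested in both experiments. Animals, genotype, injections, kits, depth and spermatid marker sums (means of 2820 CPM in deletion controls and 680 CPM in wild types) all differ between these libraries and cannot be told apart.

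**Figure D5:**
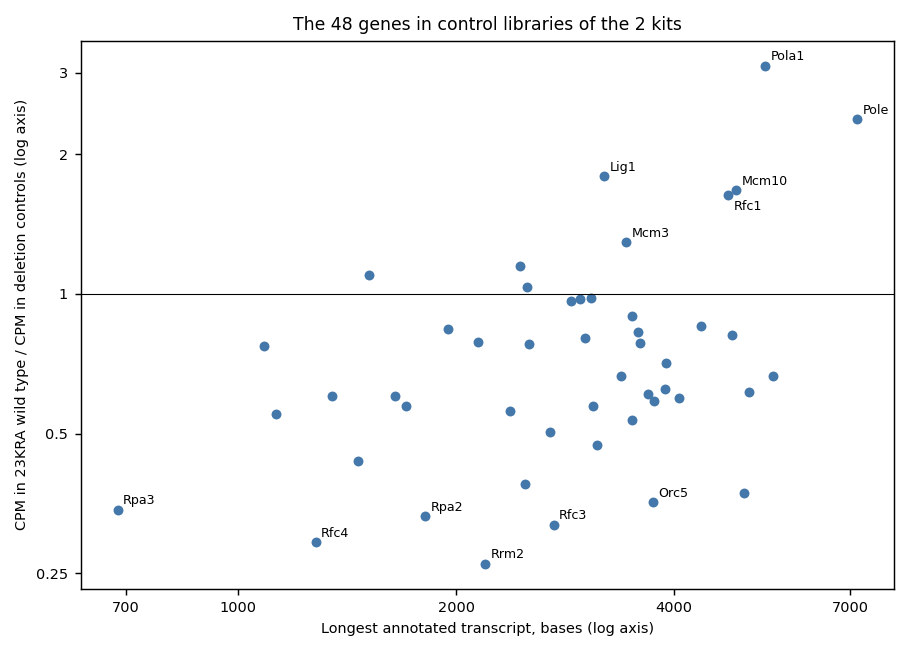
Ratio of CPM in 23KRA wild types (n = 5) to CPM in deletion controls (n = 2) for each of the 48 genes against the length of the longest annotated transcript, both on log axes; each point is a gene. Pola1 (3.11) and Pole (2.39), with long transcripts, lie highest and Rrm2 (0.262) lowest.

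Genes that work beside the members were counted in 7 further lists of 76 genes, of which 74 were tested. None passed the test in either experiment. After deletion, 45 of 74 lay above 0 (49.0% of all genes), and 3 had an unadjusted p under 0.05, a smaller share than the 4.78% of all genes: the checkpoint kinase Atr (log2 fold change 0.28), the deoxycytidylate deaminase Dctd (0.38) and the checkpoint mediator Clspn (−0.30). Of the 74, 44 lay above 0 in the 23KRA experiment (50.8% of all genes), and 1 had an unadjusted p under 0.05, a smaller share than the 3.11% of all genes, the kinase Wee1 (log2 fold change 0.33). Atrip, the partner of ATR, was listed at 0 in every library, and Pold4, the smallest delta subunit, reached at most 0.0709 CPM in the deletion and 0.295 CPM in the 23KRA experiment. By list, the smallest unadjusted p in the deletion experiment belonged to Ticrr of the origin firing factors (−0.13), Chaf1b of clamp loaders and chromatin assembly (0.16), E2f2 of the E2F and pocket proteins (−0.25) and Mcm8 of the MCM paralogs (0.15). The 23KRA counterparts were Mtbp (0.16), Asf1a (0.29), E2f4 (−0.19) and Mcm9 (−0.20), with Dna2 (−0.26) among replisome factors and Rrm2b (−0.41) in nucleotide metabolism. The most abundant genes of these lists, Top2a and Nasp, had log2 fold changes between −0.04 and 0.07.

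Markers of other cell types were set beside the members by their counts and sums. Apart from the Leydig cell gene Cyp17a1 in the deletion experiment, none of these markers passed the test. All 8 meiotic prophase markers were above 0 after deletion (49.0% of all genes), with sums of 3498 to 3629 CPM in controls and 3695 to 4022 CPM in deleted libraries. In the 23KRA experiment 6 of 8 were above 0, with overlapping sums of 2314 to 2767 and 2151 to 3056 CPM. All 7 spermatid markers were below 0 in both experiments. Their sums were 2652 to 2987 CPM in controls and 2297 to 2637 CPM in deleted libraries, without overlap. The gap between the groups was smaller than that between the libraries of either. In wild types the sums were 270.4 to 1014 CPM and in homozygotes 224 to 1028 CPM, with wide overlap. Of all genes, 15.6% lay wholly above and 17.5% wholly below the controls in the deletion experiment. Those shares also apply to the meiotic, stromal and Leydig sums, which did not overlap there. After deletion 5 of 6 peritubular and stromal markers were above 0, with sums of 11.7 to 14.3 CPM in controls and 18.9 to 28.1 CPM in deleted libraries, and 6 of 7 Leydig markers were below 0, with sums of 17.9 to 22.8 and 12.8 to 14.4 CPM. The sums overlapped between the deletion groups for Sertoli cells (117 to 122 and 112 to 120 CPM), macrophages (22.3 to 31.1 and 20.3 to 49.3 CPM) and endothelial cells (33.0 to 33.7 and 31.9 to 36.9 CPM). Their part in the members' values was not tested, and in bulk RNA fewer cells of a type and less RNA per cell cannot be told apart.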

How the data were processed

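Bulk RNA sequencing gave 14 libraries in 4 groups. The deposited values are raw counts per gene symbol in 2 tables, with no normalization. Per the submitters' processing notes, the tools used with mm10 include STAR 2.5.3, Trim Galore 0.4.3, Subread 1.5.0 with featureCounts, and SAMtools 1.4.1. For the annotation, the strand setting and multiply mapped reads, the details are not given in sources used here. From the counts, R 4.3.3 with edgeR 4.0.16 filtered genes (filterByExpr), computed TMM factors and CPM, and fitted a robust quasi-likelihood model per experiment, with 2 and 8 residual degrees of freedom, two-sided tests and Benjamini-Hochberg adjustment at 0.05. The effects were compared as an interaction in 1 fit. DESeq2 1.42.0 and limma 3.58.1 were alternatives. Intervals are at 95%. Counts per kilobase use the union of exons of GENCODE vM21 on GRCm38. Near-identical copies were sought at 95% identity over 400 bases or more.

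Values were named for members with an adjusted p under 0.05, the 5 of smallest p in each comparison, the highest and lowest per kilobase of each role, and all MCM2-7 and ribonucleotide reductase subunits; in the further lists, the smallest p and the highest level. The members and lists were chosen with earlier results of these data known. Libraries are from separate animals, per the labels' protocols. Replicates of a group differed by more than counting noise (chi-square per degree of freedom 11.2 to 41.4), so none was counted as a repeat. Depth sets counting error only, and amplified reads are not independent molecules. On simulated counts of the deletion experiment, 45% of genes changed 1.5-fold and 75% of those changed 2-fold were recovered among 16476 genes, and in the 23KRA experiment 38% and 61% among 13743. For the difference of effects 0% and 17% were recovered among 16616 genes, so that comparison could miss such changes. Each simulation changed 100 genes at each fold, drawn from genes of any level. It gave 124 calls for the deletion and 103 for the 23KRA experiment, against 1 and 0 in the data. More calls ease the Benjamini-Hochberg cut, so these shares can overstate what the real comparisons would recover.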

Additional observations from a re-analysis of the deposited data

Results flagged for a closer look

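In 9 of 120 sets of 5 libraries examined, 1 library stood apart from the other 4 by more than 0.71 of the range of the set, Dixon's critical value, and chance flags about 1 in 20 sets. All are in the 23KRA experiment, since groups of 2 are not examined. Wild-type replicate 1 was lowest for Dbf4 (131 CPM, next 186), for the summed Dbf4-dependent kinase genes (256 CPM) and for Orc4 (76.0 CPM, next 95.8), and wild-type replicate 2 was highest for Orc1 (146 CPM, next 115). Homozygous replicate 1 was highest for Mcm5 (296 CPM, next 228) and lowest for Gins3 (38.9 CPM, next 48.9) and for the summed nucleotide synthesis genes (539.7 CPM). Homozygous replicate 2 was highest for Prim1 (95.4 CPM, next 74.6), and homozygous replicate 3 for Rpa1 (182 CPM, next 149).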

How the results depend on the processing

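No replication gene was called with DESeq2 size factors, the DESeq2 Wald test, limma-voom, no filter, or any library left out, in either experiment or for the difference of effects. With the replicate number as a block, 1 replication gene (Pola1, adjusted p = 0.0192 with edgeR's test) and 62 genes in all were called in the deletion experiment, compared with 1 gene, and 0 replication genes and 1 gene in the 23KRA experiment; the labels do not say that the numbers pair animals, and same-numbered libraries had correlations of 0.161 in the deletion and from −0.01 to 0.22 in the 23KRA experiment. In the deletion experiment genes called numbered 16 with no filter on low counts, 2 with a non-robust fit, chosen after seeing the data, and 2 to 73 with 1 library left out (73 without deleted replicate 2). The median log2 fold change of the members ran from −0.0034 to 0.12 with 1 library left out there, and was 0.10 in the 23KRA experiment without the 2 wild types with fewest genes. Subunits with shares that did not overlap numbered 19 to 27 with 1 deletion library left out and in the 23KRA experiment 0 to 1 with 1 library left out and 1 with no length correction; fewer libraries make overlap rarer by construction. Of single members, 18 of 48 changed sign without deleted replicate 1 and at most 9 without any 1 library of the 23KRA experiment. Bulk levels leave protein amounts and cell cycle phase unmeasured. The causes of these shifts were not tested.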
